A study of Mus musculus with 3 samples.

Results

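DNase I accessibility was described at 5 mouse genes: the MYB family members Myb, Mybl1 and Mybl2, and the genes Hbs1l and Ahi1 that flank Myb on chromosome 10. Regions belonged to the set when they lay in 1 of these genes, within 50 kb on either side, or in the sequence between Myb and Hbs1l. The rule took 240 of 281600 accessible regions (peaks) in the list of biological replicate 1 and 76 of 89046 in that of biological replicate 2. Of these, 73 and 20 lay between Myb and Hbs1l. The rule used positions only, and the genes were 5 of 21851 protein-coding genes with a coding transcript in the annotation.

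The cells were MEL, a mouse erythroleukemia line that stays at an early stage of the red cell lineage and can be induced to make hemoglobin. The study had 3 libraries in 2 biological replicates of 1 condition, with 2 technical libraries pooled in replicate 1 and 1 library in replicate 2. The labels named no drug treatment or genetic change, and there was no second condition to compare. Each biological replicate gave 1 list, which leaves no spread to test against, so replicate values are given side by side and the cell line itself is the limit of what they describe.

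MYB is a DNA-binding activator that keeps blood progenitors dividing, and its amount falls as red cell precursors mature. Its relatives MYBL1 and MYBL2 bind the same kind of DNA word. MYBL1 is best known from the meiotic cells of the testis, and MYBL2 joins the MuvB complex to switch on genes of cell division. The sequence between Myb and Hbs1l is known to hold distal enhancers of Myb in erythroid cells, bound by GATA1, TAL1, LDB1 and KLF1, and variants in the human counterpart are associated with fetal hemoglobin levels.

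Each peak was 150 bp wide and carried a score from 1 to 150, given by the authors, whose meaning was not stated in the sources used here. The median score was 73 in replicate 1 and 32 in replicate 2, so scores were read within a list, as a percentile, and not across lists. Of all replicate 1 peaks, 30.2% were overlapped by a replicate 2 peak, and of all replicate 2 peaks, 94.6% were overlapped by a replicate 1 peak. The list lengths differed, the read depth behind them is unknown, and the pooling of libraries cannot be told apart from the replicate. Promoters of 7 of 8 erythroid marker genes held a peak in both lists. The exception was Slc4a1, the red cell anion exchanger, with none in either. T cell markers had 2 of 4 in replicate 1 and 0 of 4 in replicate 2, and B cell markers 1 of 3 and 0 of 3. Hepatocyte markers had 2 of 3 and 1 of 3, and keratinocyte markers 0 of 2 in both. Over all protein-coding genes, 58.3% had a promoter peak in replicate 1 and 49.4% in replicate 2. Several of the marker counts lie near those shares, and lists of 2 to 8 genes are too short to identify a cell type.

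The 6 highest-scoring replicate 2 peaks between Myb and Hbs1l are printed, leaving out those within 1000 bp of a gene start. The choice rests on replicate 2 scores in this interval alone, and a peak within Ahi1, described below, scored higher. The 6 were chosen after their scores were seen. Each is named by its distance upstream of the Myb start. Bases were read from the GRCm38 reference, the same build as mm10, and capitals mark the words AGATAA or AGATAG or TGATAA or TGATAG, bound by GATA factors, on either strand.
Peak at 35.8 kb, chr10:21196736-21196885, plus strand: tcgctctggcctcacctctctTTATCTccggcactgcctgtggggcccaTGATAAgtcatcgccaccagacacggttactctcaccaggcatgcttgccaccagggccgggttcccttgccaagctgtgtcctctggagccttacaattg
Peak at 60.5 kb, chr10:21221416-21221565, plus strand: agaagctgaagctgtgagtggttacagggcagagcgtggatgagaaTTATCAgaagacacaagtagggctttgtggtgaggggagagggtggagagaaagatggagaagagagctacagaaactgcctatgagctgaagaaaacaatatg
Peak at 60.7 kb, chr10:21221636-21221785, plus strand: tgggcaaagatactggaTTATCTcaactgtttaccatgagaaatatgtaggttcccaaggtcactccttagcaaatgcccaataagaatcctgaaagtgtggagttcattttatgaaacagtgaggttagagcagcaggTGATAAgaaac
Peak at 67.7 kb, chr10:21228596-21228745, plus strand: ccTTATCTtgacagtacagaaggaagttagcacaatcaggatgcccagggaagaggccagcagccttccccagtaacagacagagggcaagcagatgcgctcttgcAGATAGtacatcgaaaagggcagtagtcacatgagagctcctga
Peak at 81.0 kb, chr10:21241956-21242105, plus strand: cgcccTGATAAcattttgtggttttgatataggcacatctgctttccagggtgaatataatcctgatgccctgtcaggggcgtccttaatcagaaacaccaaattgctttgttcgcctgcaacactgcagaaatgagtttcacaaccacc
Peak at 108.0 kb, chr10:21268876-21269025, plus strand: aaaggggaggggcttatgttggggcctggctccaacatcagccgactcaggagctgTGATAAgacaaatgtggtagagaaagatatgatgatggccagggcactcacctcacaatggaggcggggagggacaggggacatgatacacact
All 6 printed peaks hold a GATA word, where 37.0% of all replicate 2 peaks between genes and over 1000 bp from a protein-coding start do. The 6 are among the 14 distal peaks counted further below and are not separate evidence. The peaks at 35.8, 60.7 and 67.7 kb hold 2 each, and those at 60.5, 81.0 and 108.0 kb hold 1. In the peaks at 35.8 and 67.7 kb, a GATA word also stands 7 to 9 bases from the letters CTG, the composite arrangement known for GATA1 with TAL1.

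Replicate 2 scores of the printed peaks, in order from Myb, were 66, 106, 94, 62, 93 and 58. These scores stood at the 87.8, 99.4, 98.0, 85.2, 97.8 and 82.3 percentile of the replicate 2 list. Of the 6, 5 were overlapped in replicate 1, with scores of 144 at 35.8 kb, 150 at 60.5 kb, 139 at 67.7 kb, 147 at 81.0 kb and 142 at 108.0 kb. The peak at 60.7 kb had no overlapping peak in replicate 1, although both replicates had a wide accessible zone (hotspot) there. The replicate 1 hotspot was 2443 bp wide (chr10:21220812-21223254) and the replicate 2 hotspot 1067 bp (chr10:21221212-21222278), the widest of the interval in each list.

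**Figure D1:**
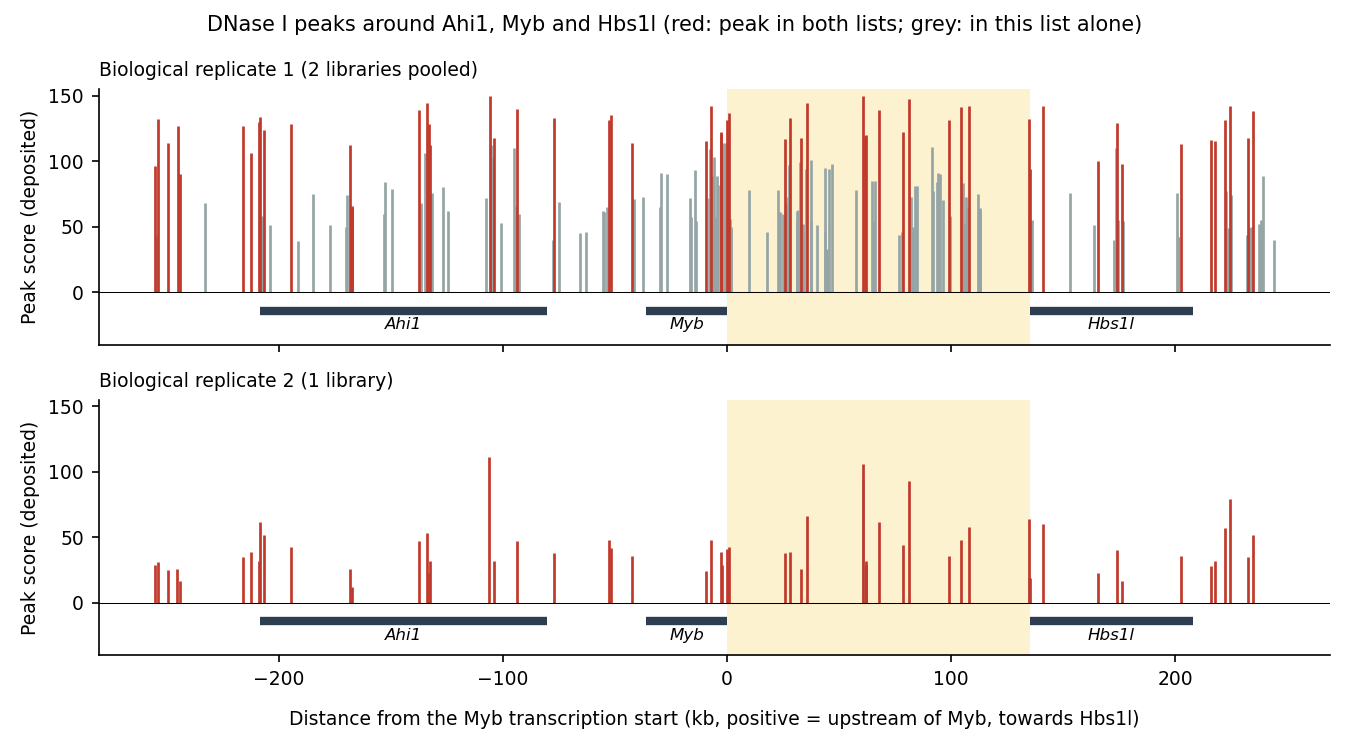
Peak scores (vertical axis, deposited units) against distance from the Myb start in kb, for each biological replicate, with the genes as dark bars and the sequence between Myb and Hbs1l shaded; red lines are peaks found in both lists and grey lines peaks in 1 list (the replicate 2 peak at 60.7 kb is hidden behind its neighbour). The highest shaded line stands at 60.5 kb in both panels, with scores of 150 and 106, and no peak was called in the last 21.6 kb (replicate 1) or 26.5 kb (replicate 2) before the peaks at the Hbs1l start.

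Myb (ENSMUSG00000019982.15, chr10:21124935-21160984, minus strand, mm10) had an accessible promoter in both lists, but not a high-scoring one. The promoter was taken as 1000 bp to either side of a protein-coding transcript start. Its highest peak scored 137 in replicate 1, at the 44.7 percentile of the 12732 promoters with a peak, and 43 in replicate 2, at the 21.5 percentile of 10805. Medians over all promoters with a peak were 139 and 63. The highest peak lay 666 bp from the start in replicate 1 and 686 bp in replicate 2, upstream of the gene. The peak nearest to the start, 14 and 34 bp from it, scored 131 and 41. Replicate 1 had 5 promoter peaks with scores from 111 to 137, and replicate 2 had 4 with scores from 21 to 43, so neither list had a single dominant promoter peak.

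Some distal peaks of the interval outscored the Myb promoter. More than 1000 bp from any protein-coding start, 8 of 14 replicate 2 peaks scored above 43 (95% Wilson interval 32.6 to 78.6%), against 26.4% of all such peaks between genes. In replicate 1, 6 of 69 scored above 137 (4.05 to 17.7%), against 4.51%, which is within the counting error. The 3 protein-coding genes whose pair of promoter scores lay closest to that of Myb were Cdyl, Il9r and Lypla2, at a summed difference of 0. They were the first by symbol of 6 genes with that difference, over 2 lists.

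Mybl1 (ENSMUSG00000025912.16, chr1:9667415-9700209, minus strand) was the member whose place differed most between lists. Its highest promoter peak scored 140 in replicate 1, at the 54.3 percentile, and was not overlapped in replicate 2. With a promoter of 500 bp to either side, Mybl1 stood at the 35.6 percentile in replicate 1 and the 15.2 in replicate 2, a smaller difference. The single replicate 2 promoter peak scored 37, at the 15.1 percentile, lay 241 bp upstream of the start, and was overlapped by a replicate 1 peak of 133. Replicate 1 had 4 promoter peaks in all, and its peak nearest to the start scored 86.

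Mybl2 (ENSMUSG00000017861.11, chr2:163054687-163084688, plus strand) had promoter peaks of 138 and 62, at the 47.6 and 48.2 percentile. Hbs1l (ENSMUSG00000019977.16, chr10:21295979-21368898, plus strand), which encodes a GTPase that rescues stalled ribosomes, had 132 and 64, at the 33.8 and 51.4 percentile. Ahi1 (ENSMUSG00000019986.17, chr10:20952547-21080429, plus strand), which encodes a protein of the ciliary transition zone, had 134 and 62, at the 37.5 and 48.2 percentile. In replicate 2 these 3 promoters stood near the median of the promoters with a peak, while Myb and Mybl1 stood below the range that holds the middle 50% of them. All 5 of 5 members had a promoter peak in both lists, where 58.3% of protein-coding genes had one in replicate 1, 49.4% in replicate 2 and 49.4% in both.

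**Figure D2:**
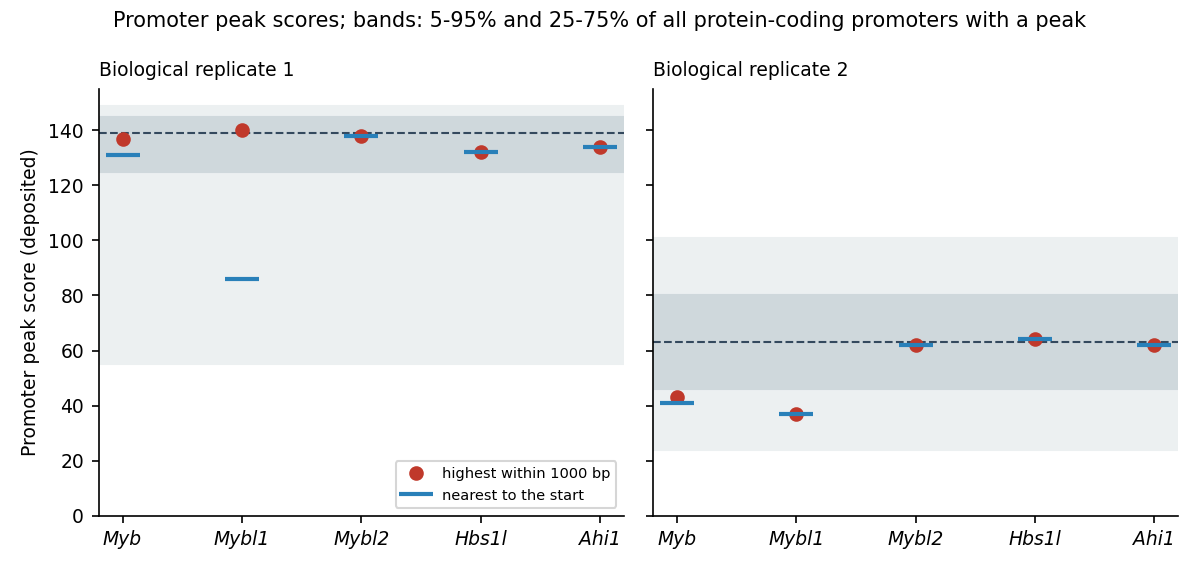
Promoter peak score (vertical axis, deposited units) of each member in each biological replicate; red points are the highest peak within 1000 bp of a start, blue bars the peak nearest to it, bands the 5 to 95% and 25 to 75% range of all promoters with a peak, and the dashed line their median. In replicate 2, Myb (43) and Mybl1 (37) lie below the 25 to 75% band, whereas Mybl2, Hbs1l and Ahi1 lie between 62 and 64, close to the median of 63.

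The promoter sequences of Myb and Mybl2 were compared because both genes are known targets of E2F factors, which drive genes of the cell cycle. The 100 bases before the RefSeq start of each (GRCm38.p6) are shown, with capitals for the word TTGGCGGG, a form of the E2F site. This word was chosen after the sequences were seen.
Myb, chr10:21160985-21161084, minus strand: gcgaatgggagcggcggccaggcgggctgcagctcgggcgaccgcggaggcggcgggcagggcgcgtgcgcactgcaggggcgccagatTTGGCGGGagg
Mybl2, chr2:163054535-163054634, plus strand: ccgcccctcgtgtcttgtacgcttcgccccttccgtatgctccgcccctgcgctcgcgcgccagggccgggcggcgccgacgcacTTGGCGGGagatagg
The word begins 11 bases before the start of Myb and 15 before that of Mybl2, in the direction of the gene in both. It is found on either strand in 320 of 32851 promoter windows of 300 bases (0.974%), and in none of the windows for Hbs1l and Ahi1. A match describes letters and not binding.

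Other words were searched on both strands of the 300-base promoter windows, which run from 250 bases before a start to 50 after it. RefSeq windows matched 4 of the 5 members, Mybl1 being the other, and Ahi1 had 2 windows. The E2F words TTTCCCGC or TTTGGCGC or TTTGCCGC or TTTCGCGC, present in 2.26% of all promoters, were in no member window. The GC box GGGCGG, present in 35.7%, was found 3 times at Myb, 4 times at Mybl2, 2 times at Ahi1 and 1 time at Hbs1l. The word CCNCNCCC of KLF factors, present in 49.5%, was found 4 times at Myb, 1 time at Mybl2, 6 times at Ahi1 and 10 times at Hbs1l, where overlapping matches in a run of C were each counted. A GATA word, present in 29.8%, was found at Mybl2. The MYB words CAACTG or CAACGG or TAACTG or TAACGG, present in 28.3%, were in no member window. The other Ahi1 window (chr10:21040570-21040869), held no peak in either list; it had 1 GATA word, 1 CCAAT word (37.4% of promoters) and 1 cell cycle homology word, TTTGAA or TTCGAA (19.2%).

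Around Myb, replicate 1 peaks were dense. Within the gene and 50 kb on either side there were 73 peaks in replicate 1, or 5.37 per 10 kb, at the 96.1 percentile of 21938 protein-coding genes (the 21851 with a coding transcript and 87 without one in the annotation used), and 16 in replicate 2, or 1.18 per 10 kb, at the 79.6 percentile. Medians over all genes were 2.07 and 0.679 per 10 kb. Hbs1l had 53 and 17 peaks, at the 73.3 and 70.1 percentile, and Ahi1 had 62 and 24, at the 65.8 and 73.7 percentile. Mybl1 had 24 and 4 peaks, at the 43.5 and 28.2 percentile, and Mybl2 had 22 and 12, at the 40.7 and 66.5 percentile. The windows of Ahi1 and Myb overlap, so they share peaks and are not separate observations. The Hbs1l window overlaps neither of them.

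Inside Myb, replicate 2 called peaks away from the promoter in introns 1, 3 and 5. The pair in intron 1 (chr10:21158196-21158345 and chr10:21158456-21158605) scored 39 and 29, over replicate 1 peaks of 121 and 122. The peak in intron 3 (chr10:21153596-21153745) scored 48, above the promoter, over a replicate 1 peak of 142, and also lies in exon 3 of the noncoding gene Gm26577. The peak in intron 5 scored 24 over a replicate 1 peak of 115. All 16 replicate 2 peaks of the Myb window were overlapped in replicate 1, and 15 of the 73 replicate 1 peaks were overlapped in replicate 2. Over the whole lists the shares were 94.6% and 30.2%, so the first count is near the background.

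The sequence between the Myb start and the Hbs1l start (chr10:21160985-21295978, 135.0 kb) was among the densest gaps between protein-coding genes. It held 5.41 peaks per 10 kb in replicate 1 and 1.48 in replicate 2, against medians of 1.04 and 0.313 over 3761 gaps of 50 to 300 kb. Those densities stood at the 98.9 and 96.0 percentile, and 41 and 150 gaps were denser. Hotspots covered 22.4% of the interval in replicate 1 and 4.31% in replicate 2. Peaks lying across either end were counted, and 3 replicate 1 peaks and 4 replicate 2 peaks lay within 1000 bp of the Myb start, with 1 and 2 near the Hbs1l start. When the replicate 1 list was cut to its highest-scoring peaks, as many as replicate 2 had, the interval held 21 peaks in replicate 1 beside the 20 of replicate 2.

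**Figure D3:**
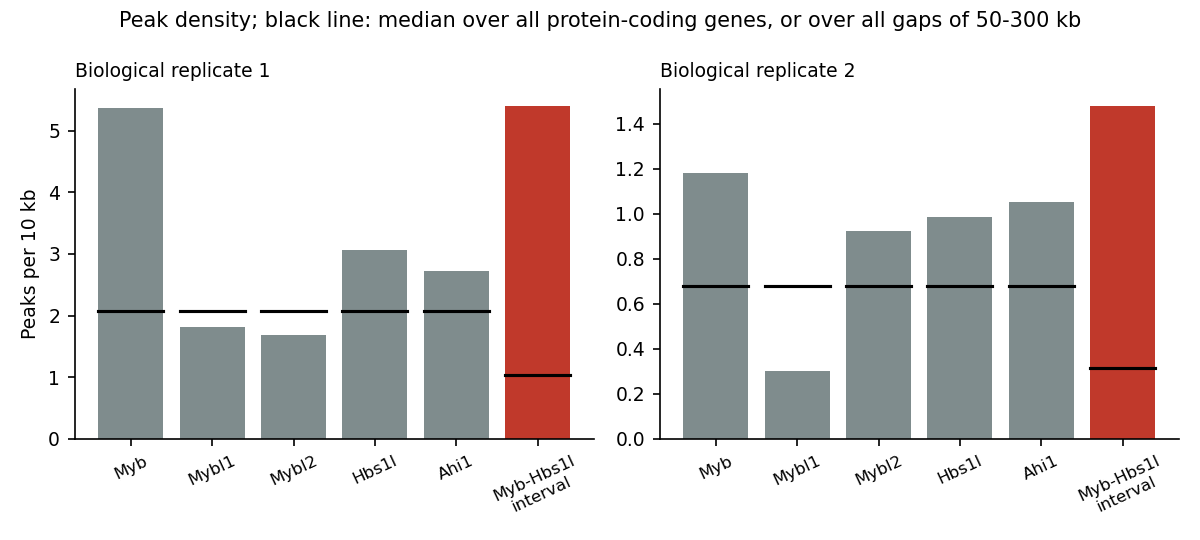
Peaks per 10 kb (vertical axis) in each member and 50 kb on either side (grey bars) and in the interval between Myb and Hbs1l (red bar), for each biological replicate; black lines are medians over all protein-coding genes or over all gaps of 50 to 300 kb, and the panels have different scales. The interval stands at 5.41 against a median of 1.04 in replicate 1 and at 1.48 against 0.313 in replicate 2.

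Peaks of the interval were not spread evenly. In replicate 1 the first 25 kb upstream of Myb, with the peak across the Myb start, held 10 peaks, the next 25 kb 25, the stretch from 50 to 75 kb 10, that from 75 to 100 kb 18 and that from 100 to 125 kb 9. In replicate 2 the same stretches held 4, 4, 5, 3 and 2 peaks. The longest stretch without a peak ended at the Hbs1l promoter in both lists, from 113.2 to 134.8 kb in replicate 1 and from 108.0 to 134.6 kb in replicate 2. Replicate 2 had other long stretches without a peak, next to Myb from 0.7 to 25.9 kb and farther out from 35.8 to 60.5 kb. Replicate 1 had peaks in both of these.

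From Myb outwards, replicate 2 began with 4 promoter peaks at 0.0, 0.4, 0.5 and 0.7 kb, with scores of 41, 24, 21 and 43. They overlapped 3 replicate 1 peaks, of 131, 120 and 137. No further replicate 2 peak was called before 25.9 kb, where a peak in introns of the noncoding genes Gm40608 and Gm33619 scored 38 over 117. A peak at 28.2 kb, 28 bp from the start of Gm40608, scored 39 over 133. A peak at 33.0 kb scored 26 over 118, and the printed peak at 35.8 kb scored 66 over 144. Both lists had these 4 peaks in the same places, and the peak farthest from Myb scored highest in each.

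The next group, from 60.5 to 81.0 kb, lies in intron 2 of the long noncoding RNA gene Gm33728. It opens with the printed peaks at 60.5 and 60.7 kb. A peak at 61.8 kb scored 32 over replicate 1 peaks of 119 and 120, and a peak at 62.0 kb scored 29 over 120. After the printed peak at 67.7 kb, a peak at 78.7 kb scored 44 over 122, and the printed peak at 81.0 kb followed. Of the 14 distal replicate 2 peaks, 3 scored above 82, the 95 percentile of that list, and all 3 belong to this group.

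Beyond Gm33728, a peak at 98.8 kb scored 36 over 131, a peak at 104.5 kb scored 48 over 141, and the printed peak at 108.0 kb scored 58 over 142. At the Hbs1l end, a peak at 134.6 kb scored 20 with no replicate 1 overlap, and the Hbs1l promoter peak at 134.9 kb scored 64 over 132. The 3 highest replicate 1 peaks without a replicate 2 overlap scored 111 at 91.4 kb, 236 bp from the start of Gm33728, 101 at 37.4 kb and 99 at 32.6 kb.

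Sharing between the lists followed the replicate 1 score closely. Of 73 replicate 1 interval peaks, 17 (23.3%, 95% Wilson interval 15.1 to 34.2) were overlapped in replicate 2, against 30.7% of peaks between protein-coding genes. That share is within its counting error of the background. Of 20 replicate 2 peaks, 18 (90.0%, 69.9 to 97.2) were overlapped in replicate 1. In replicate 1 the median score was 132 for overlapped peaks and 64 for the rest, with the lowest overlapped peak at 117 and the highest other peak at 111, so the groups did not mix. For replicate 1 scores of 1 to 49, 0 of 11 interval peaks were overlapped, where 1.57% of all peaks were. For scores of 50 to 99 it was 0 of 43 (Wilson upper limit 8.20%) against 15.1%, for 100 to 124 it was 6 of 8 against 60.4%, and for 125 to 150 it was 11 of 11 against 92.8%. Among these bands, only that of 50 to 99 had a Wilson interval that left out its background share. Whether the interval and the whole list had the same mix of scores within that band was not tested. Wilson intervals here and below cover counting error only and treat neighbouring peaks as independent, which they may not be.

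GATA words were common in the distal replicate 2 peaks. Of 14 replicate 2 peaks more than 1000 bp from a protein-coding start, 11 held one (78.6%, 95% Wilson interval 52.4 to 92.4), against 37.0% of all such peaks between genes. Of the 13 found in both lists, 10 held one (76.9%, 49.7 to 91.8, against 37.4%). Over the 20 interval peaks with the promoters included it was 11 (55.0%, 34.2 to 74.2) against 32.7%, since no promoter peak held one. In replicate 1 the share over all 73 peaks was 27.4% (20 peaks, 18.5 to 38.6) against 30.8%, and over the 69 distal peaks 29.0% (19.6 to 40.6) against 32.2%. Within the replicate 1 distal peaks, 9 of the 13 overlapped in replicate 2 held a GATA word (69.2%, 42.4 to 87.3, against 36.6%), and 11 of the other 56 did (19.6%, 11.3 to 31.8, against 30.5%). GATA words were thus more frequent in the overlapped peaks than in the rest, while the replicate 1 total stood near its background. Both the limit to distal peaks, here and in other paragraphs, and this split of the replicate 1 peaks were made after the values were seen. The overlapped peaks of the 2 lists are largely the same DNA and do not count as separate evidence.

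The composite of CTG and a GATA word, in which every match is also a GATA match, was in 4 of the 14 distal replicate 2 peaks (28.6%, 11.7 to 54.6) against 5.37%. Over all 20 it was 4 (8.07 to 41.6%) against 4.67%, and in replicate 1 it was 3 of 73 (4.11%) against 3.53%. The E-box CAGNTG was in 4 of the 14 (28.6%) against 34.3%, and in 27 of the 73 (37.0%) against 33.0%. The KLF word was in 4 of the 14 against 19.3% and in 10 of the 73 (13.7%) against 17.7%. The RUNX word TGTGGT was in 4 of the 14 against 17.1% and in 13 of the 73 (17.8%) against 15.6%. With 14 peaks, each of these 3 shares has a Wilson interval of 11.7 to 54.6%, which spans its background.

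The word GAGGAAGT of PU.1, the factor whose gene is activated by the Friend virus in erythroleukemia, was scarce in replicate 1 peaks between Myb and Hbs1l. It was found in 1 of 73 (1.37%, Wilson interval 0.242 to 7.36) against 8.43% of peaks between genes. In the distal replicate 2 peaks it was in 0 of 14 (upper limit 21.5%) against 11.4%. PU.1 is singled out here from all the motifs searched, and its replicate 1 upper limit lies close to the background. The MYB words were in 11 of 73 (15.1%) against 17.5%. AP-1, TGANTCA, was in 3 (4.11%) against 8.41%. The ETS word CCGGAAG was in 0 of 73 against 1.56%, the CTCF motif in 0 against 2.63%, and the NF-E2 motif, TGANTCA preceded by TGC, in 0 against 1.06%. Each 0 of 73 has an upper limit of 5.0%, so the last 3 cannot be set apart from background at this number of peaks. The MYB and AP-1 intervals also span their backgrounds, as does the replicate 2 interval of PU.1.

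**Figure D4:**
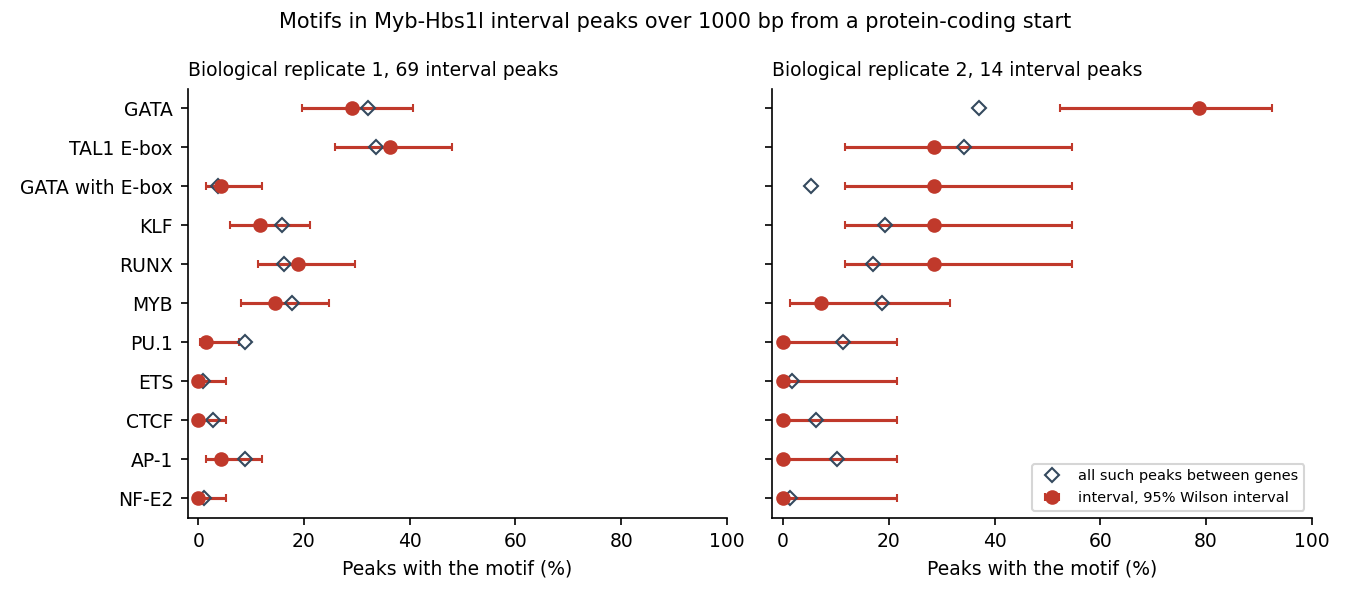
Share of peaks holding each motif (horizontal axis, %) among interval peaks more than 1000 bp from a protein-coding start (red points, bars are 95% Wilson intervals) and among all such peaks between protein-coding genes (open diamonds), for each biological replicate. GATA words stand at 78.6% against 37.0% in replicate 2 and at 29.0% against 32.2% in replicate 1. The limit to distal peaks was set after the values were seen.

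Repeats made up more than 50% of the bases in 12 of the 73 replicate 1 interval peaks and in 1 of the 20 replicate 2 peaks. Median GC content was 48% and 50%. The part of repeats in the difference between the lists was not tested.

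On the other side of Myb, the gap to Ahi1 (chr10:21080430-21124934, 44.5 kb) held 14 peaks in replicate 1, of which 4 were overlapped, and 4 in replicate 2. The replicate 2 scores were 38, 48, 42 and 36, over replicate 1 peaks of 133, 131, 135 and 114. All 4 held a GATA word, where 37.0% of distal replicate 2 peaks between genes did. Their scores lay below those of the printed peaks on the Hbs1l side, which were chosen as the highest there. The other distal replicate 2 peaks on the Hbs1l side scored from 26 to 48. Densities were 3.15 and 0.899 per 10 kb, below the 5.41 and 1.48 of the interval between Myb and Hbs1l.

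Ahi1 held the highest-scoring replicate 2 peak of the chromosome 10 members. This peak, in intron 19 (chr10:21054836-21054985), scored 111 in replicate 2, at the 99.7 percentile of the list, and 150 in replicate 1, and held 2 GATA words. It outscored the Ahi1 promoter in both lists. A group of 4 peaks in intron 18 included a peak of 53 over 144 (chr10:21026936-21027085). Peaks in intron 21 and intron 6 scored 47 over 140 and 43 over 128. In all, 24 of 24 replicate 2 peaks in the Ahi1 window were overlapped in replicate 1, near the 94.6% of the whole list.

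Within Hbs1l, the highest peak away from the promoter lay in intron 2 (chr10:21301916-21302065), with 60 over 142 and 1 GATA word. Beyond the end of Hbs1l, its window takes in Aldh8a1, a gene for an aldehyde dehydrogenase. A peak 361 bp from the Aldh8a1 start scored 28 over 116, and a peak in its intron 4 (chr10:21385216-21385365) scored 79 over 142. That intron peak was the highest replicate 2 score of the Hbs1l window.

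Mybl1 and Mybl2 differed in where their peaks lay. The Mybl1 window had 4 replicate 2 peaks: the promoter peak, a peak of 15 over 91 in exon 11, a peak of 32 over 127 in intron 1 of the neighbour Vcpip1, and a peak of 111 over 149 at the start of Vcpip1, 88 bp away. The last also lies at the start of the noncoding gene 1700034P13Rik and was the highest of the window, so the strongest accessible site near Mybl1 is the promoter of another gene. A replicate 1 peak of 77 lay 66 bp from the start of the noncoding gene 2610203C22Rik.

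Mybl2 carried peaks in its own first intron. There, replicate 2 peaks of 19, 27 and 42 lay over replicate 1 peaks of 119, 124 and 140, at 403, 743 and 1263 bp from the start. The last (chr2:163055876-163056025) was the highest replicate 1 peak of the window, above the promoter's 138. Peaks in intron 3 and intron 5 scored 30 over 118 and 23 over 80. At the start of the neighbour Ift52, a gene for a ciliary transport protein, a peak scored 45 over 131, and another 344 bp away scored 32 with no replicate 1 overlap.

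**Figure D5:**
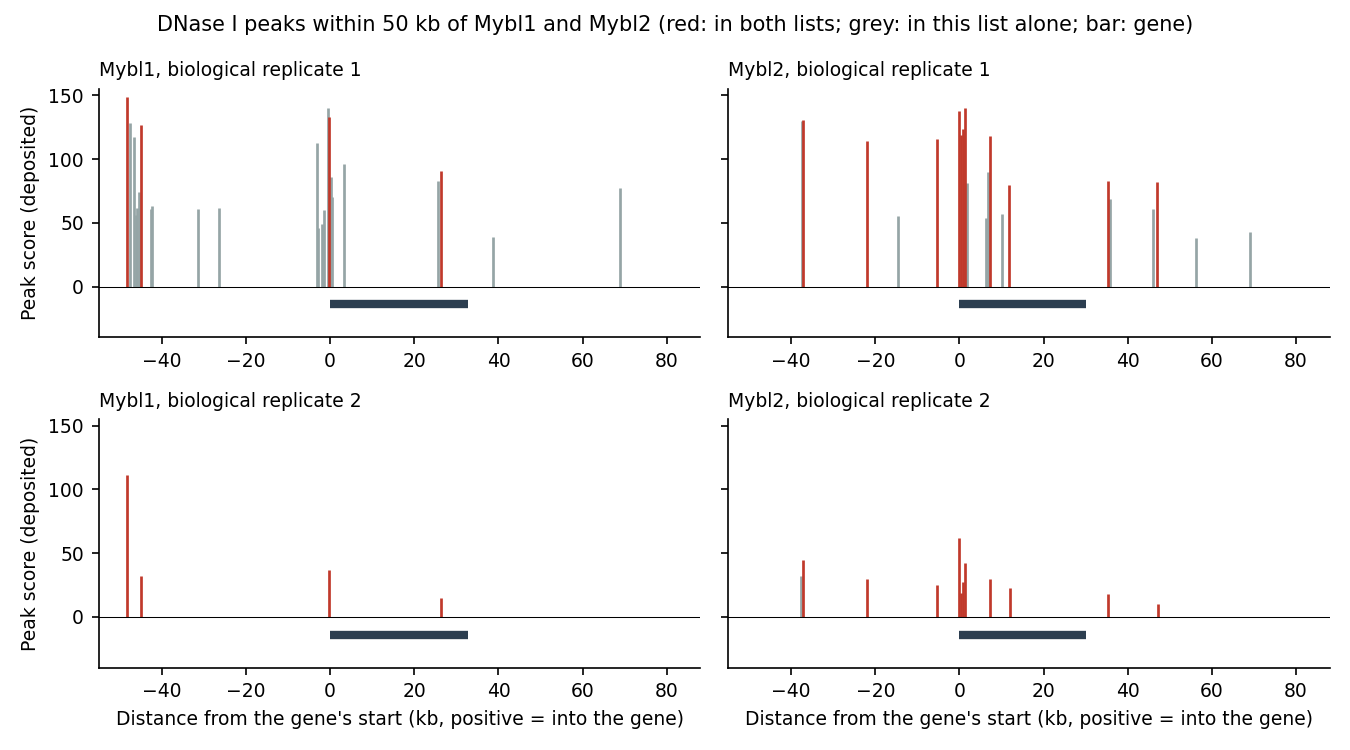
Peak scores (vertical axis, deposited units) against distance from the gene start in kb, positive into the gene, for Mybl1 (left) and Mybl2 (right) in each biological replicate; bars mark the genes, red lines peaks in both lists and grey lines peaks in 1 list. The highest replicate 2 line of the Mybl1 panels (111) stands at the start of Vcpip1, and that of the Mybl2 panels (62) at the Mybl2 promoter.

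Genes listed with the members as partners or related factors mostly had accessible promoters. All 10 genes listed with MYBL2 (members of the MuvB and DREAM complexes, and Foxm1) had a promoter peak in both lists. The highest replicate 2 scores were at Lin52 (150 in replicate 1 and 112 in replicate 2), Lin37 (149 and 97) and Rbbp4 (143 and 79). All 7 listed cofactors of MYB had one in both, led by Men1 (149 and 92), Ep300 (138 and 79) and Kmt2a (140 and 72). All 8 genes listed for the LDB1 complex and its partners had one in both, led by Cbfa2t3 (147 and 102), Tcf3 (150 and 101) and Klf1 (140 and 84). The background over protein-coding genes is the 58.3% and 49.4% given above, and these lists are made up largely of widely expressed or blood cell genes.

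Known targets of MYB had the lowest share of these lists, with a promoter peak in 6 of 10 in replicate 1 and 5 of 10 in replicate 2, close to the background. Myc, a growth regulator, scored 145 and 86, Klf1, the erythroid factor, 140 and 84, and Bcl2, a survival factor, 143 and 51. Gata3 had a peak of 111 in replicate 1 alone. None was called at Kit, the stem cell factor receptor, Cd34, Elane or Ccna1 in either list. Within 2500 bp of a start the counts were 8 of 10 and 7 of 10, where 66.2% and 54.5% of protein-coding genes had a peak. Elane then had peaks of 135 and 54, Cd34 had 69 in replicate 1 alone, Gata3 had 144 and 59, and Kit and Ccna1 still had none. Genes listed with HBS1L, for ribosome rescue or translation termination, had a peak at 7 of 8 in both lists. The highest were Gspt1 (150 and 92), Etf1 (150 and 91) and Ttc37 (139 and 82), with none at Gspt2. Gspt1, Gspt2 and Etf1 encode termination factors. Ciliary partners of AHI1 had one at 8 of the 9 found in the annotation as protein-coding, led by Rab8a (149 and 98), Cep290 (147 and 91) and Tctn1 (137 and 75), with none at Cc2d2a.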

How the data were processed

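DNase-seq peaks and hotspots of MEL cells were used as the authors deposited them, with build mm10 per the labels. Regions of replicate 1 came from its 2 libraries pooled, per the labels, and those of replicate 2 from 1 library. Each deposited peak has a score, a whole number from 1 to 150 of unstated meaning. Each deposited hotspot has a −log10 q-value, from 1.30 to a cap of 100, and was used as a position. The sources used here give no aligner, caller or read depth. Exact repeats were dropped (67 and 7 lines). A peak was shared when at least 1 bp overlapped. Genes came from GENCODE M21 basic, promoters from RefSeq and bases from GRCm38, in which all peaks lay. Motifs were searched in the 150 bp of each peak. Shares carry 95% Wilson intervals. Scripts, tested on simulated data, used pysam 0.24.0, pandas 2.3.3, numpy 2.4.6 and scipy 1.17.1 under Python 3.11.15. Genes named were the members, neighbours with a start within 1000 bp of a member's peak, the 3 partner genes of each list highest in replicate 2, those with no promoter peak, and the 3 genes most like Myb. The members and lists were chosen with earlier results of these data known. Alternatives varied promoter and flank widths, overlap, list length, gap sizes and motif window, and distal peaks alone were added after seeing the data.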

Additional observations from a re-analysis of the deposited data

How the results depend on the processing

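With 1 list per replicate, no left-out library or paired fit could be run. Limits are the unknown depth, the unstated score and the small number of interval peaks. Replicate 1 interval peaks numbered 41 in the higher-scoring 50% of the list and 21 at equal list length. Both cuts shorten the list, so these counts cannot exceed the count in the full list. At equal list length 81.0% of the interval peaks were overlapped in replicate 2. The share over all peaks of that cut list is not given here. Over all replicate 1 peaks, 60.4% were overlapped at scores of 100 to 124 and 92.8% at 125 to 150. The density percentile was 99.4 and 97.5 (replicates 1 and 2) among gaps of 100 to 200 kb, and 99.3 and 96.7 with hotspots in place of peaks. The share of replicate 1 interval peaks with a GATA word was 43.8% in a 300 bp window, where 48.7% of peaks between genes had one. In replicate 2, 14 of 20 had one in that window (95% Wilson interval 48.1 to 85.5%), against 48.3%, so its lower limit no longer cleared the background, and the share was 78.6% over distal peaks alone in 150 bp. Over promoter widths of 500 to 2500 bp, the promoter percentile of Mybl1 ranged from 35.6 to 56.5 in replicate 1 and from 15.1 to 17.6 in replicate 2, and that of Myb from 32.0 to 47.8 in replicate 1 and from 19.4 to 23.7 in replicate 2.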
